A study of Mus musculus with 48 samples.

Results

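Cardiac macrophages of uninfarcted newborn mice were compared between 3 and 7 days after a sham operation performed on postnatal day 1 (P1), that is, at an age of about 4 and 8 days. The comparison used 9 libraries, 6 from day 7 and 3 from day 3, of the 42 libraries of the series analysed here. They were chosen by their titles alone, which name the age at surgery, the sham operation, the day and the part of the heart. All animals were C57BL/6 mice of both sexes, and the sex of the pups was not determined. In sham surgery the coronary artery was not tied off, so no animal of either group was infarcted. Cells positive for CD45 and F4/80 and negative for the dead-cell dye 7-AAD were sorted from 3 parts of the heart named after infarct geography, namely the infarct zone (IZ), the border zone (BZ) and the remote zone (RZ), which in a sham heart are only positions. Several hearts were pooled per sample. Zones with the same age, surgery, day and replicate number were taken to come from 1 pool of hearts, which the titles do not state. On this reading day 3 held 1 pool, cut into 3 zones, and day 7 held 2 pools of 3 zones each. Zones of a pool then share hearts, and 3 pools stood behind the 9 libraries. Where day 10 after birth (P10) was the age at surgery, sham hearts were collected at about 13 and 17 days. P1 hearts infarcted by tying off the coronary artery, collected at the same 3 and 7 days, were also set beside the P1 sham hearts. Together with infarcted P10 hearts, these groups make up the 42 libraries.

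H3K27ac, acetylation of lysine 27 of histone H3, marks active promoters and enhancers, and CoBATCH measures it by cutting and tagging DNA at antibody-bound chromatin with a transposase. The amount of the mark over a gene and its surroundings is commonly read as the activity of that gene, although it is not a measurement of RNA. Macrophages of the newborn heart are largely descended from embryonic precursors, and monocytes from the blood join them after birth. Resident macrophages of the heart are known for Lyve1, Folr2, Timd4, C1q and the lectin Mgl2, and patrolling Ly6c-low monocytes for Ace, Treml4 and Nr4a1.

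The level of a gene was the number of read pairs in H3K27ac regions within its window, which ran from 50 kb before the gene to 30 kb behind it, in CPM, that is, scaled to the sum of the library's pairs over the windows tested. Windows of neighbouring genes overlap and then share pairs. The 9 libraries held 3452290 read pairs, from 48077 in the IZ of day 7 pool 1 to 727085 in the RZ of day 3. In the shallowest library 1 pair was worth 23.0 CPM, and a count of 0 allowed a level of up to 69.1. Such limits cover counting error only, and not the sampling of cells, as the number of cells behind a library was not counted here. All 16 macrophage core genes, among them Spi1, which encodes the transcription factor PU.1, and Csf1r, the receptor for colony-stimulating factor 1, had levels per kb of window above the middle of all 21938 genes at both days. Their median percentile was 91.1 at day 3 and 91.9 at day 7, and that of the non-leukocyte genes was 33.4 and 34.2, with 8 and then 9 of those 10 genes below the middle. The defining markers differed in rank. Csf1r stood at percentile 97.7 and 97.5, Folr2 at 89.6 and 89.3 and Lyve1 at 83.2 and 81.9, whereas the window of Timd4 stood at 31.4 and 30.5, and no pair in a region was counted for Spp1 or Lin28b.

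The days also differed in flow cells and fragment span. The day 3 pool was sequenced on 4 flow cells, of which day 7 pool 1 shared 1, with 19.8% of its pairs, and day 7 pool 2 none. The median span of a fragment was 187 to 195 bp at day 3 and 254 to 277 bp at day 7, a difference of 78.3 bp (exact permutation test, two-sided, p = 0.0119, the smallest p the 84 arrangements allow, adjusted p = 0.0714 over 6 properties). The 2 day 7 pools also differed from each other. Between 32.2% and 39.3% of the pairs of pool 1 and between 47.9% and 57.4% of the pairs of pool 2 fell in regions, with 41.0% to 44.1% at day 3 in between. Chromosome X held 1.73% ± 0.0382 of pairs at day 3 (SD, n = 3) and 1.99% ± 0.128 at day 7 (SD, n = 6), and all day 7 libraries lay above all day 3 libraries (exact permutation p = 0.0238, adjusted p = 0.0714). The 133 X-linked windows tested had a median log2 difference of 0.12, against -0.02 over all windows. Above 0 were 94 of the 133, against 4735 of all 10159. An unadjusted p under 0.05 on the higher side was reached by 3 of the 133, against 2.39% of all windows. Shares of pairs on chromosome Y, in promoters and of G and C bases overlapped between the days, with adjusted p = 0.774 for each and for the share in regions. A permutation over the 3 pools themselves could not pass 0.05.

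**Figure D1:**
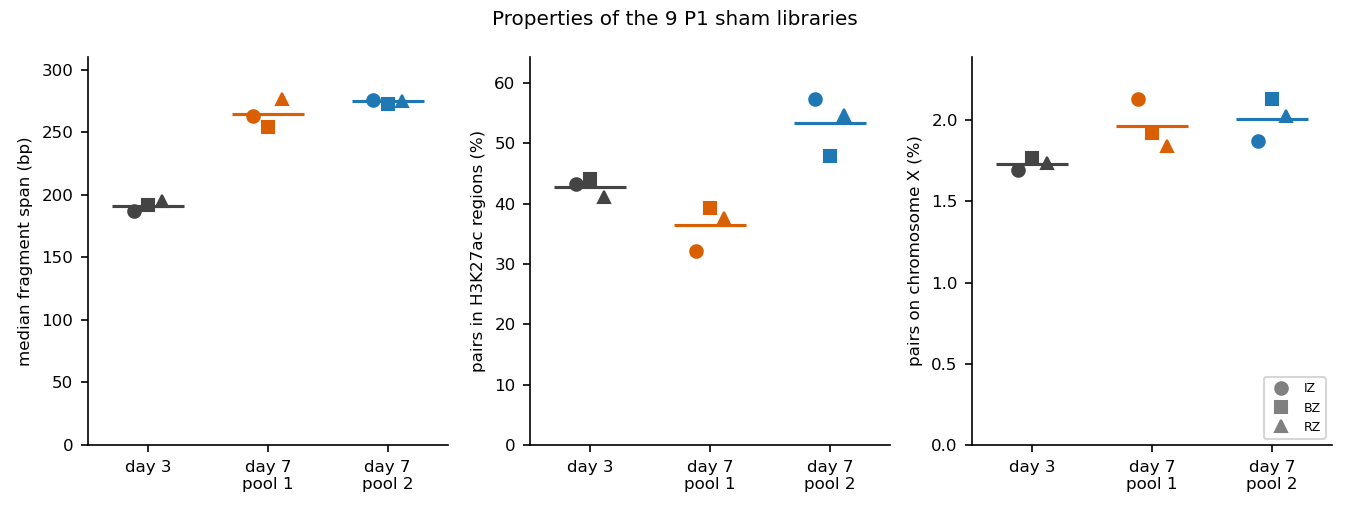
Median fragment span in bp, percentage of pairs in H3K27ac regions and percentage of pairs on chromosome X in each of the 9 P1 sham libraries. Symbols give the zone, horizontal lines the mean of the 3 libraries of a pool. Spans at day 3 lie at 187 to 195 bp and spans in both day 7 pools at 254 to 277 bp, while the share in regions of day 3 lies between those of the 2 day 7 pools.

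No gene window passed an adjusted p of 0.05 between day 7 and day 3 in the P1 sham heart. Of 10159 windows tested, 0 (0.0%) were called by limma with Benjamini-Hochberg adjustment, 678 had an unadjusted p under 0.05 and 132 one under 0.01, of which 33 were higher and 99 lower at day 7. The smallest adjusted p was 0.0865. The middle 90% of log2 differences lay between -0.52 and 0.53. The 95% interval reached a median of 0.57 to either side of the estimate, and for 7444 windows (73.3%) the whole interval lay within a 2-fold change in either direction. For the other windows a change of that size was not excluded by the interval. Among regions, 0 of 12490 passed (0.0%), with 742 at an unadjusted p under 0.05 and 177 under 0.01. The precision over regions was lower, with a median of 1.02 to either side and 2518 regions (20.2%) bounded within 2-fold. In each zone taken alone, with 1 library at day 3 against 2 at day 7, 1 window passed, in the BZ (0.00984% of 10159), and 0 passed in the IZ and RZ. An unadjusted p under 0.05 was reached by 514 windows in the IZ, 242 in the BZ and 504 in the RZ. The window in the BZ was that of Tab2, which encodes a binding partner of the kinase TAK1. It held 0 CPM in the BZ of day 3 against 35.9 and 15.4 in the BZ of day 7 (limma adjusted p = 0.00330), where the count of 0 allowed up to 6.63, and it had 29.6 and 43.9 in the IZ and RZ of day 3, beside 23.0 and 34.5 in the IZ and 40.4 and 42.6 in the RZ of day 7. The lone BZ library of day 3 was assumed to vary like the libraries of other groups. The call was lost when pool 2 alone stood for day 7, that is, without any library of day 7 pool 1.

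**Figure D2:**
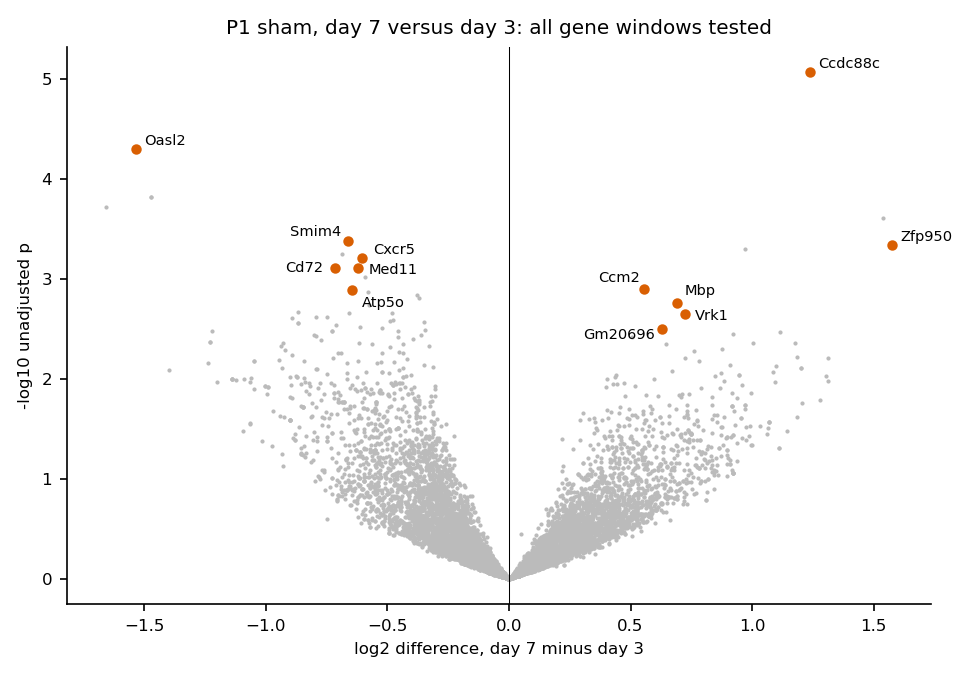
Log2 difference between day 7 and day 3 (x axis) and -log10 of the unadjusted p (y axis) of the 10159 gene windows tested in P1 sham hearts; orange points are the 12 windows of smallest p by direction that had the same sign in all 3 zones and did not overlap. Ccdc88c at 1.24 and Oasl2 at -1.54 stand highest on either side, and neither passed after adjustment.

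The 12 windows of smallest p, 6 in each direction, were described because none passed. Ccdc88c, which encodes the Dishevelled-binding scaffold protein Daple, lay on chr12:100911523-101029056. Its level was 91.9, 133 and 91.6 CPM in the IZ, BZ and RZ of day 3. At day 7 it was 277, 247 and 283 in pool 1 and 276, 270 and 190 in pool 2. All 6 day 7 libraries lay above all 3 of day 3, which held for 1.57% of all windows. The log2 difference was 1.24 (SE 0.256, 95% interval 0.73 to 1.75, limma adjusted p = 0.0865), and it was 1.59, 0.96 and 1.17 in the IZ, BZ and RZ. The adjacent window of Ppp4r3a, which encodes a regulatory subunit of protein phosphatase 4 and which was named for its position after its values were seen, shared pairs with it and had a log2 difference of 0.97 (SE 0.265). In the pairs of the shared flow cell alone the difference of Ccdc88c was 1.02.

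Oasl2, an interferon-induced member of the oligoadenylate synthetase-like family, had the smallest p on the lower side. It held 70.1, 57.4 and 71.5 CPM in the IZ, BZ and RZ of day 3. Day 7 pool 1 had 0, 35.9 and 24.2, the 0 standing in the shallowest library, and pool 2 had 18.3, 34.2 and 19.5. The day 7 libraries lay below all those of day 3, as did 2.5% of all windows. The log2 difference was -1.54 (SE 0.353, 95% interval -2.24 to -0.83, limma adjusted p = 0.256), from 187 pairs in all. The neighbouring and overlapping window of its paralog Oasl1 held nearly the same pairs and differed by -1.47 (SE 0.366).

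The other 5 windows on the higher side ranged from 0.56 to 1.57 on the log2 scale with adjusted p of 0.562 to 0.678. Zfp950, a zinc finger gene, rested on 201 pairs, differed by 1.57 (1.04 without the IZ of day 3) and held 12.5 to 35.3 CPM at day 3 and 49.7 to 92.2 at day 7. As day 3 held 1 library per zone, leaving 1 of these out removed that zone of both days from the log2 difference, here and below. Ccm2, a member of the cerebral cavernous malformation complex, held 191 to 208 at day 3 and 248 to 484 at day 7. Vrk1, a nuclear kinase of dividing cells, held 96.6 to 112 and then 138 to 210. Mbp, whose locus encodes myelin basic protein and related proteins of immune cells, held 167 to 241 at day 3 and 207 to 347 at day 7, and its groups overlapped. The predicted gene Gm20696 held 139 to 146 and then 162 to 257.

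The other 5 windows on the lower side lay between -0.60 and -0.72 with adjusted p of 0.562 to 0.678. Smim4, which encodes a small mitochondrial protein, held 223 to 272 CPM at day 3 and 108 to 185 at day 7. Cxcr5, the receptor for the chemokine CXCL13, held 249 to 276 and then 137 to 205. Med11, a subunit of the Mediator complex, held 279 to 316 and then 141 to 254. Cd72, an inhibitory receptor of B cells and macrophages, held 168 to 213 and then 64.6 to 149. Atp5o, a subunit of the mitochondrial ATP synthase, held 207 to 228 and then 108 to 207, and its groups touched. Its difference of -0.65 was -0.33 without the IZ of day 7 pool 2.

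**Figure D3:**
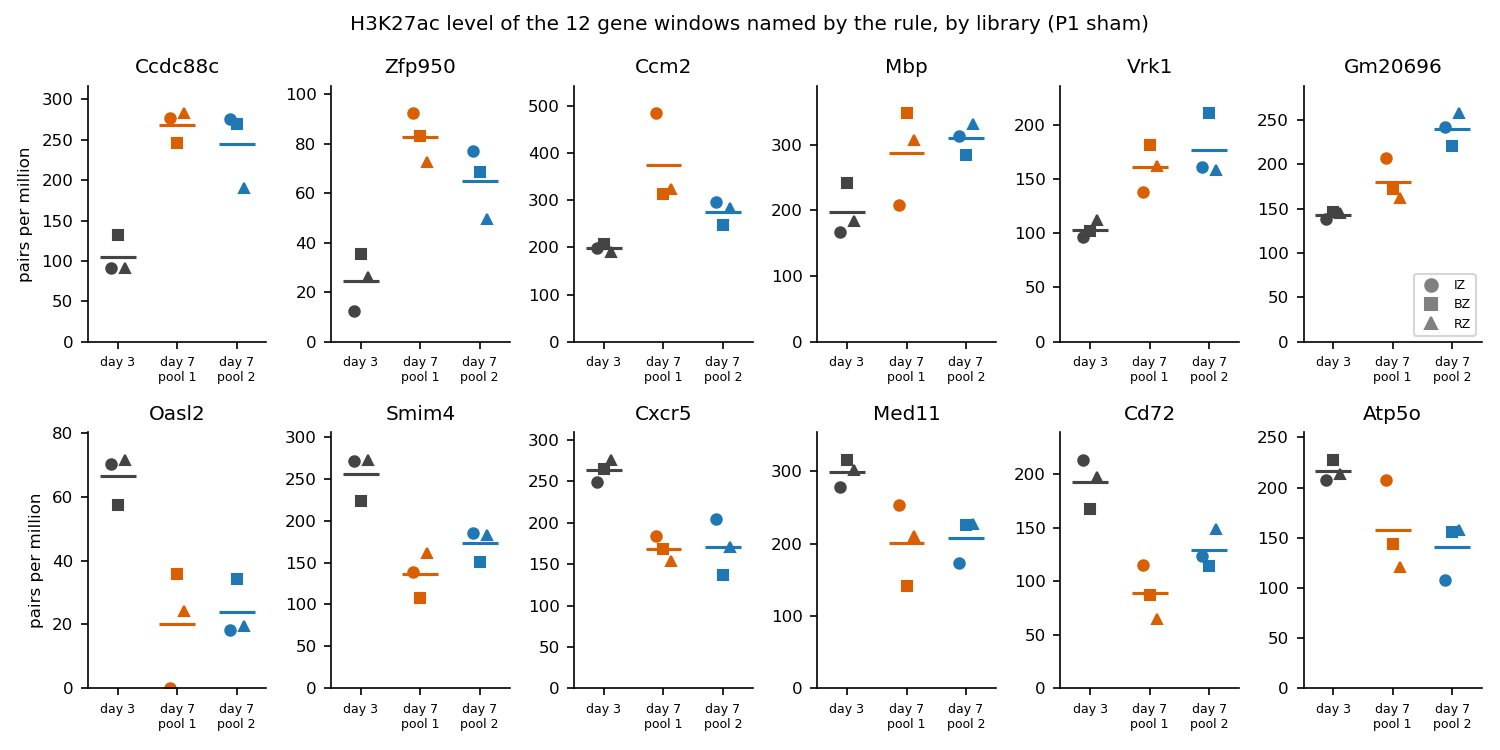
Level in CPM of the 12 windows in each of the 9 P1 sham libraries, with zone symbols and the mean of each pool as a line; the upper row was higher and the lower row lower at day 7. Both day 7 pools stand on the same side of day 3 in all 12 windows, and single libraries overlap with day 3 in Mbp and touch it in Atp5o. The windows were picked from these libraries for small p and for the same sign in the 3 zones, which favours such agreement.

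Resident macrophage genes had mostly negative differences. Of 16 listed genes 15 were tested, 13 lay below 0 and 0 passed. The median log2 difference was -0.42, against -0.02 over all windows. An unadjusted p under 0.05 on the lower side was reached by 4 members, against 4.28% of all windows, and by 0 on the higher side, against 2.39%. Mgl2, a C-type lectin, held 63.9, 59.7 and 52.7 CPM at day 3, 69.1, 13.4 and 16.2 in day 7 pool 1 and 42.7, 27.3 and 39.1 in pool 2, in the order IZ, BZ and RZ. Its log2 difference was -0.89 (SE 0.358, limma adjusted p = 0.678), and the IZ of pool 1, where 1 pair weighs most, stood above day 3. Without the BZ of day 3 the difference was -0.57. F13a1, coagulation factor XIII A chain, differed by -0.94 (SE 0.405) but by 0.11 over all pairs of its window, in regions or not. Unadjusted p under 0.05 was also reached by Dab2, an endocytic adaptor, at -0.56 (SE 0.257) and Stab1, a scavenger receptor, at -0.49 (SE 0.156). Stab1 held 345 to 425 at day 3 and 199 to 311 at day 7 without overlap, and its window shared pairs with that of Smim4. Over all pairs of the windows 13 of the 16 listed genes lay below 0, with a median of -0.41, and 0 had an unadjusted p under 0.05.

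The other resident macrophage genes did not reach an unadjusted p of 0.05. C1qa, a chain of complement C1q, held 90.6 to 145 at day 3 and 48.5 to 124 at day 7 (log2 difference -0.63, SE 0.315). The Fc receptor-like gene Fcrls differed by -0.81 (SE 0.439) and the carbonyl reductase gene Cbr2 by -0.42 (SE 0.332). These values moved with what was left out. Leaving out 1 of the 9 libraries, and with a day 3 library its zone, gave -0.94 to -0.34 for C1qa. The range was -1.28 to -0.07 for Fcrls, with the value nearest 0 without the IZ of day 7 pool 2. For Cbr2 it was -0.74 to -0.06, with the value nearest 0 without the RZ of day 7 pool 2. Lyve1, a hyaluronan receptor, differed by -0.13 (95% interval -0.70 to 0.43) and Folr2, folate receptor beta, by -0.01 (-0.45 to 0.43), with 0.12 over all pairs. Vsig4, a complement receptor gene on chromosome X, was on the other side at 0.91 (SE 0.484), with 0.36 over all pairs. Timd4, a phosphatidylserine receptor, had too few pairs in regions, and with all pairs of its window counted it differed by -0.40 (SE 0.426). Summed over the 15 tested genes, the level was 1423 to 1633 CPM at day 3, 957 to 1129 in day 7 pool 1 and 1180 to 1390 in pool 2. The median difference was -0.48 against pool 1 alone and -0.36 against pool 2 alone. In pooled cells, fewer cells of a type and less of the mark per cell cannot be told apart.

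Classical monocyte genes had positive differences, also without a call. The 5 tested classical monocyte genes of 9 all had positive differences, with a median of 0.43 and 0 at an unadjusted p under 0.05. Among them Plac8 had 0.47 (SE 0.249). Ccr2, the receptor for the chemokine CCL2, held 170 to 181 at day 3 and 115 to 234 at day 7, a difference of 0.09 (95% interval -0.33 to 0.52). Ly6c2 was too shallow in regions and differed by 0.43 (SE 0.353) over all pairs of its window. The median of the classical monocyte list was 0.20 against pool 1 alone, 0.42 against pool 2 alone and -0.27 in P10 sham. Between pool 1 and pool 2 of P10 sham day 7, alike in age and treatment, the list differed by a median of -1.09. The 9 Ly6c-low monocyte genes, all tested, had a median of 0.13, with 6 above and 3 below 0, and of 0.58 against pool 1 alone and 0.11 against pool 2 alone. Ace, angiotensin-converting enzyme, held 18.7, 26.5 and 30.1 CPM at day 3, 69.1, 76.2 and 64.6 in day 7 pool 1 and 67.0, 25.6 and 49.7 in pool 2. Only the BZ of pool 2 fell within the range of day 3, and the log2 difference was 1.11 (SE 0.553, limma adjusted p = 0.732). It was 0.65 over all pairs of the window and 0.73 without the IZ of day 3. Treml4, a receptor of the Trem-like family, differed by 0.29 (SE 0.329), Nr4a1, a nuclear receptor needed by these monocytes, by 0.15 (SE 0.165) and Spn, which encodes CD43, by -0.45 (SE 0.243). With 1 library left out Nr4a1 ranged from -0.02 to 0.31 and Spn from -0.61 to -0.22, and over all pairs Nr4a1 was at 0.35.

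No gene of those that define the macrophage lineage passed at this depth. The 16 core genes had a median of -0.08, with 1 lower at an unadjusted p under 0.05. Spi1 held 303 to 364 CPM at day 3 and 307 to 402 at day 7 (log2 difference 0.05, 95% interval -0.25 to 0.35). Csf1r held 303 to 343 and then 238 to 349 (-0.12, interval -0.45 to 0.21), and Adgre1, which encodes F4/80, 137 to 168 and then 92.2 to 171 (-0.07, interval -0.46 to 0.32). Over all pairs of their windows Csf1r and Adgre1 turned sign, to 0.05 and 0.07. Cebpb, a transcription factor of myeloid cells, was the 1 lower gene, at 382 to 413 and then 266 to 362, with no overlap (-0.39, SE 0.132, limma adjusted p = 0.678). It was at -0.26 (SE 0.188) over all pairs. The 16 genes ranged from -0.53 to 0.44, the latter being Ptprc, which encodes CD45 (SE 0.223). Over all pairs Ptprc was at 0.58 (SE 0.270), the 1 core gene with an unadjusted p under 0.05 on the higher side.

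Several inflammatory, interferon and repair genes had values below 0. Of the 16 immediate early and inflammatory genes 14 lay below 0, with a median of -0.25 and 2 at an unadjusted p under 0.05, against 5424 of all 10159 windows below 0 and 4.28% at that p on the lower side. Over all pairs of the windows 11 of the 16 lay below 0, with a median of -0.07 and 0 at that p, and the median in infarcted P1 hearts was 0.03. The 2 genes were Fosb, a subunit of AP-1, at -0.47 (SE 0.191) and the chemokine gene Cxcl3 at -1.14 (SE 0.429). Cxcl3 ranged from -1.52 to -0.49 with 1 library left out, the latter without the RZ of day 3, and was -0.68 over all pairs. The window of Cxcl3 held the same pairs as that of Pf4, the platelet factor 4 gene listed among erythroid and megakaryocyte genes, and counts in both lists. Of the 8 tested interferon response genes of 12, 7 lay below 0, with a median of -0.24 and 1, Oasl2, at an unadjusted p under 0.05. Over all pairs of the window Ifit3, an interferon-induced antiviral gene, differed by -0.84 (SE 0.379). Among the 8 tested growth factor and wound repair genes of 13, the median was -0.25 and 2 had an unadjusted p under 0.05. Osm, the cytokine oncostatin M, held 188 to 208 at day 3 and 115 to 178 at day 7 (-0.49, SE 0.204), and Mmp14, a membrane metalloproteinase, held 186 to 201 and then 113 to 170 (-0.38, SE 0.182). They differed by -0.39 and -0.18 over all pairs of their windows, neither with an unadjusted p under 0.05, which 1 of 12 repair genes reached on the lower side. Igf1 differed by 0.14, with an interval from -0.70 to 0.98.

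In the remaining groups no member passed. The 6 tested genes of the Arg1 and lipid-associated macrophage list had a median of 0.09, with Arg1 at 0.61 (SE 0.414), Trem2 at -0.01 (SE 0.337) and the tetraspanin gene Cd63 at -0.90 (SE 0.395). Arg1 and Trem2 turned sign over all pairs of their windows, to -0.07 (SE 0.330) and 0.10 (SE 0.315), and Cd63 was at -0.47. With 1 library left out Cd63 ranged from -1.38 to -0.41, the latter without the RZ of day 7 pool 1. The 9 tested antigen presentation and dendritic cell genes had a median of -0.20. H2-Aa, an MHC class II chain, stood at -0.69 (SE 0.455) and at -0.28 without the BZ of day 7 pool 1, Cd74 at -0.21 (SE 0.202), the class II activator Ciita at 0.21 (SE 0.302) and Flt3 at 0.71 (SE 0.356). The 10 lipid and sterol genes had a median of -0.05. Among them Pparg, the nuclear receptor that controls lipid storage, held 23.4, 26.5 and 38.9 CPM in the IZ, BZ and RZ of day 3 and 44.4 to 92.2 at day 7 without overlap (0.94, SE 0.376, limma adjusted p = 0.678). Over all pairs of its window the difference was 0.22 (SE 0.273), and the groups overlapped. The 10 cell cycle genes had a median of -0.02 and a range from -0.40 to 0.23, with 0 at an unadjusted p under 0.05. The 7 tested S100a9 monocyte and granulocyte genes had a median of -0.05, and over all pairs S100a8 and S100a9 differed by -0.54 (SE 0.680) and -0.61 (SE 0.682).

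Genes of fetal growth were nearly bare of regions, and 2 of 12 were tested there. One was Igf2bp3, an RNA-binding protein gene of fetal cells, at 0.04 (SE 0.243). Over all pairs of the window 9 were tested, with a median of -0.56 against -0.02 over all windows, and 2 had an unadjusted p under 0.05 on the lower side, against 1.63% of all windows. These were Hmga2, a chromatin protein gene of fetal cells, at -1.32 (SE 0.548) and Igf2bp2 at -0.96 (SE 0.370), whereas Lin28b, which blocks the let-7 microRNAs, differed by -0.69 (SE 0.574). None passed after adjustment.

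Markers of other cells were given for the same samples. The 4 tested erythroid and megakaryocyte genes of 9 lay below 0, with a median of -0.44 and a summed level of these 4 of 235 to 245 CPM at day 3 and 121 to 217 at day 7. The 1 tested non-leukocyte gene, Pecam1, which macrophages and monocytes also express, had 0.24, with 260 to 296 at day 3 and 288 to 530 at day 7. Pecam1 ranged from 0.15 to 0.50 with 1 library left out and was at 0.35 (SE 0.168) over all pairs of its window. Over all pairs, the 10 non-leukocyte genes together held 785 to 837 CPM of all pairs of the library at day 3 and 874 to 1074 at day 7. Of this Pecam1 alone held 424 to 435 at day 3 and 488 to 574 at day 7. Among the 8 non-leukocyte genes tested over all pairs, 4 lay below 0, with a median of 0.01. Of the lymphoid and mast cell genes 2 of 9 were tested. Cd79a, a chain of the B cell receptor complex, had 0.11, with -0.06 to 0.66 when 1 library was left out and 0.21 over all pairs. The summed level of the 2 was 92.8 to 102 at day 3 and 83.3 to 277 at day 7. The part of other cells in the differences above was not tested.

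**Figure D4:**
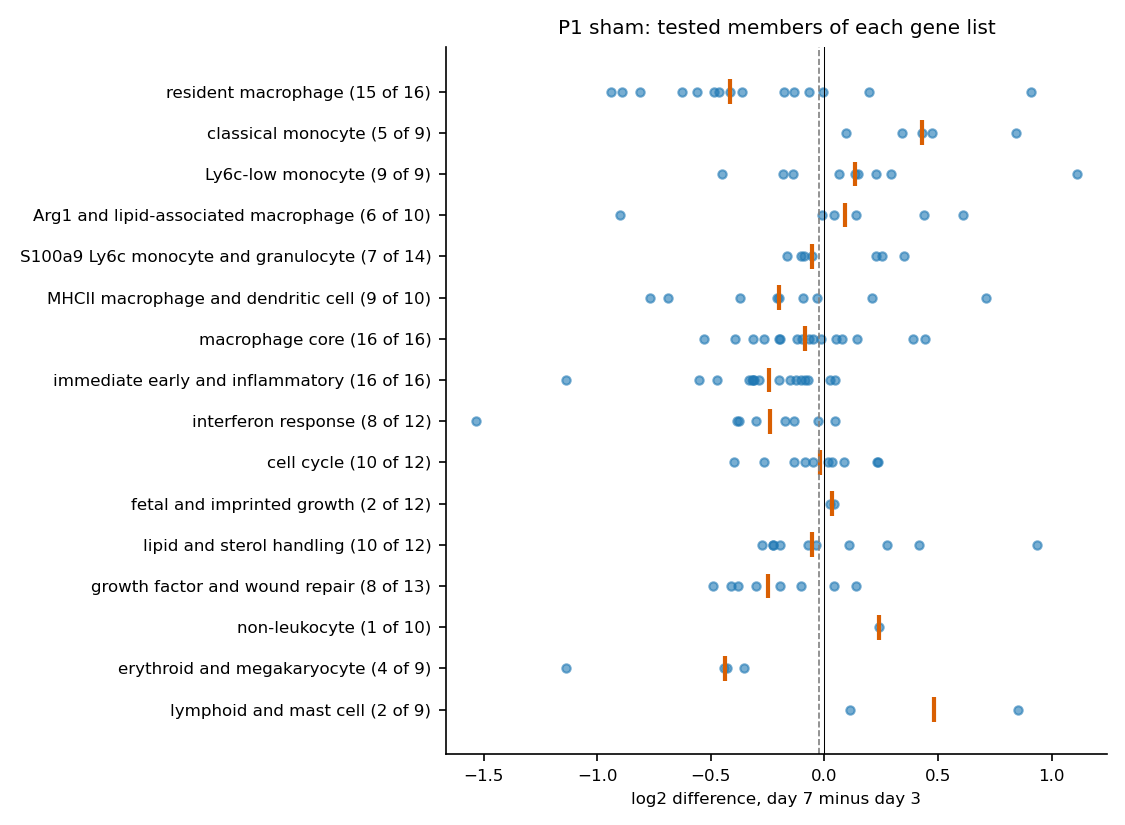
Log2 difference between day 7 and day 3 of each tested member (blue points) of the 16 gene lists in P1 sham hearts, with the median of a list as an orange bar and the median of all windows as a dashed line; brackets give the tested genes of those listed. Resident macrophage genes centre on -0.42 and classical monocyte genes on 0.43, and no point passed after adjustment.

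Among the regions of smallest p, both regions named first on the higher side lay within Ccdc88c, at 15159 and 38659 bases from the nearest start site. Their pairs are also counted in the Ccdc88c window, so they are no separate evidence for it. Region chr12:101005501-101022000 held 103, 188 and 133 CPM over the regions tested at day 3 and 257 to 399 at day 7 (log2 difference 1.20, SE 0.311), and chr12:100983001-100997500 held 60.6 to 114 and then 172 to 293 (1.39, SE 0.372). In the pairs of the shared flow cell alone these 2 regions differed by 0.76 and 0.65. Between pool 1 and pool 2 of P10 sham day 7 they differed by -1.53 and -1.36. The third, chr10:91241001-91244000, between genes and 70918 bases from the start of Tmpo, held 54 pairs in all and its groups overlapped (2.28, SE 0.649). On the lower side, chr16:95820001-95835000 lay 121161 bases from the start of Ets2 and outside protein-coding genes. It held 163, 141 and 191 CPM at day 3 and 21.5 to 113 at day 7 (-1.59, SE 0.383). Region chr11:70431001-70476000 spanned Arrb2, Cxcl16, Med11 and Zmynd15 and held 783 to 933 and then 392 to 627 (-0.72, SE 0.177). Region chr11:31732501-31737000, 62865 bases from the start of Bod1, held 60.4 to 69.9 at day 3 and 0 to 33.2 at day 7 from 52 pairs in all (-2.16, SE 0.548). The limma adjusted p was 0.353 for 5 of the 6 and 0.458 for the region near Tmpo.

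The central 300 bases of 3 of these regions are shown as examples of the letters under differences in either direction. The central stretch of the region at Med11 overlaps an annotated UTR and is left out, and the next region on the lower side stands in its place. All are RefSeq GRCm38.p6, plus strand, 5′ to 3′. Capitals mark matches on either strand to AP-1 (TGANTCA), PU.1 (GAGGAAG), C/EBP (TTGCNNAA), MITF/TFE (CACGTG), RUNX (TGTGGT), MAF (TGCTGAC), KLF (GGGNGGGG), a nuclear receptor motif (AGGTCA) or the interferon regulatory factor (IRF) motif, GAAA and GAAA with 2 bases between them.
Ccdc88c intron, chr12:100990101-100990400: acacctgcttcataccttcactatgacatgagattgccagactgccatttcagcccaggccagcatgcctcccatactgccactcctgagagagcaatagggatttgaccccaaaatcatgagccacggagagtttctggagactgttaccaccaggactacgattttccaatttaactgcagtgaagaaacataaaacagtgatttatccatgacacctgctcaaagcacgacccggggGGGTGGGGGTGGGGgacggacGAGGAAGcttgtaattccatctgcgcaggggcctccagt
Near Ets2, chr16:95827351-95827650: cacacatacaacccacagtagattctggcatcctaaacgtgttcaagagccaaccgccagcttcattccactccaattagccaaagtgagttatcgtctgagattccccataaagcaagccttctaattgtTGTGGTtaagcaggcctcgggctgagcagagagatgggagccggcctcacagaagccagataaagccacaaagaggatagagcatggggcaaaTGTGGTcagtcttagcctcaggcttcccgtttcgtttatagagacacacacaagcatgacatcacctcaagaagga
Near Bod1, chr11:31734601-31734900: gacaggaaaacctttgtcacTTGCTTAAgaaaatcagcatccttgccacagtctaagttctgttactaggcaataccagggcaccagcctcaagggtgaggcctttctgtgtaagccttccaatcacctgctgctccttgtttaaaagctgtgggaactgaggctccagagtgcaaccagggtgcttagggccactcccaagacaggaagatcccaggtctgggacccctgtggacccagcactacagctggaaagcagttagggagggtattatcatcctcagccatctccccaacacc

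Motif shares over sets of regions were set beside those of all regions. Of the 45 regions higher at day 7 with an unadjusted p under 0.01, 17.8% held PU.1 in their central 300 bases, as did 14.4% of the 132 lower regions and 13.9% of all 12490 regions tested. The nuclear receptor motif stood at 26.7% of the higher and 19.7% of the lower regions, against 16.5% of all. The IRF motif stood at 6.67% and 7.58%, against 3.84%, RUNX at 17.8% and 21.2%, against 18.9%, and AP-1 at 4.44% and 6.82%, against 7.69%. Promoter regions, within 1 kb of a start site, made up 44.4% of the higher and 55.3% of the lower set and 60.0% of all regions tested. The higher set held a median of 4.0 pairs per library and the lower set 12.4, against 8.07 over all regions. The median log2 difference was -0.07 in promoter, -0.09 in gene body and -0.06 in intergenic regions, and it was 0.0023 in the 3125 regions of lowest and -0.11 in the 3140 of highest G and C content. These shares are descriptions, and matching letters do not mark a bound site.

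The same day difference was read in 2 other groups of libraries, which share no library with the P1 sham hearts. In infarcted P1 hearts, 121 of the 132 windows with an unadjusted p under 0.01 in P1 sham had the same sign (91.7%), against 61.4% of all windows tested. Among regions at that p, 121 of the 132 lower ones (91.7%) but 24 of the 45 higher ones (53.3%) had the same sign, against 59.2% of all regions tested. Ccdc88c differed there by 0.85, Oasl2 by -0.78 and Ace by 1.07, and the resident macrophage list had a median of -0.30. The P1 infarct day 3 pool was sequenced on the same 4 flow cells as the P1 sham day 3 pool, with fragments of 194 to 198 bp. The test of whether the day difference itself differed between infarcted and sham P1 hearts passed for 0 of 10159 windows (0.0%) and 0 of 12490 regions (0.0%) by limma, with 221 windows and 320 regions at an unadjusted p under 0.05. Its 95% interval reached a median of 0.84 to either side over windows, and it lay within a 2-fold change in either direction for 4390 windows (43.2%).

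In P10 sham hearts, 30 of the 132 windows had the same sign (22.7%), against 40.7% of all windows. Ccdc88c differed there by 0.02, Oasl2 by 0.01 and Stab1 by 0.26, and the resident macrophage list had a median of 0.26. No window of the P10 sham comparison passed on its own either, with 860 at an unadjusted p under 0.05. The flow cells lay the other way in this group. P10 sham day 7 pool 1 was sequenced entirely on the 4 flow cells of P1 sham day 3, with fragments of 196 to 201 bp, while P10 sham day 7 pool 2 shared none of them and had 283 to 302 bp. These 2 pools are of 1 age, day and treatment. Ccdc88c was at 66.3 CPM in pool 1 and 167 in pool 2, and Oasl2 at 61.7 and 25.1. Of the 132 windows, 111 (84.1%) stood in P10 pool 1, compared with pool 2, on the side of P1 day 3, against 65.2% of all windows. In the pairs of the flow cell shared by P1 day 3 and day 7 pool 1, Ccdc88c differed by 1.02 and Oasl2 by -1.53, and the part of fragment span in the day difference was not tested. For the resident macrophage list the 2 P10 pools differed by a median of 0.16 and for the classical monocyte list by -1.09.

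**Figure D5:**
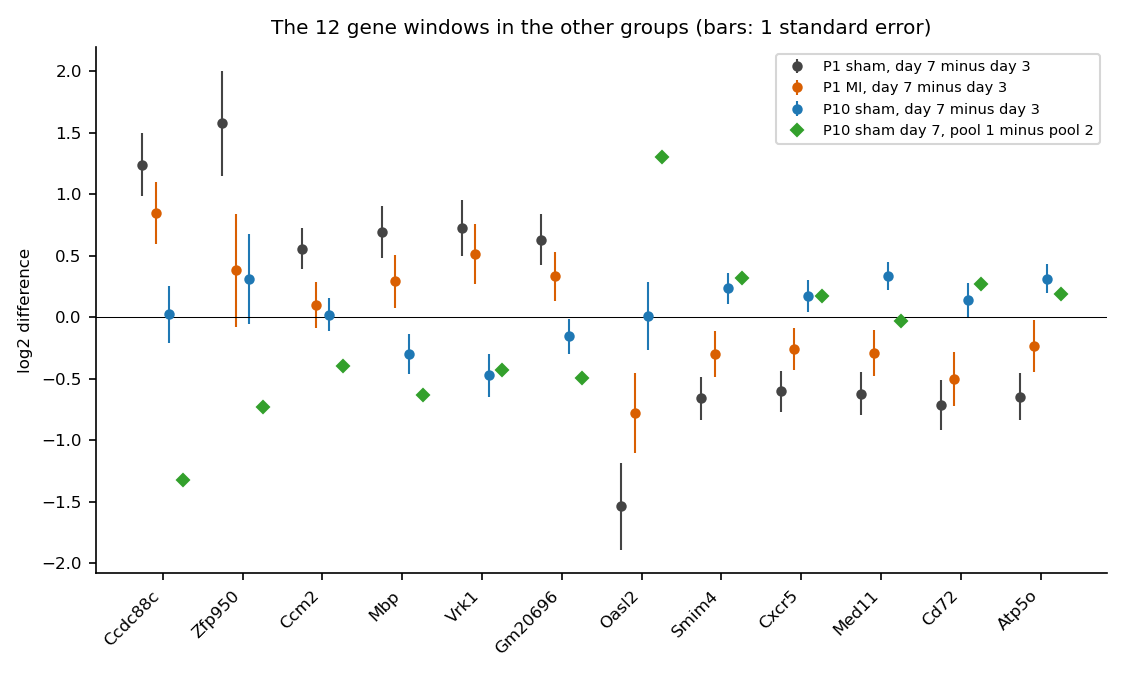
Log2 differences of the 12 windows in P1 sham (grey), P1 infarct (orange) and P10 sham (blue), each day 7 minus day 3 with 1 standard error, and between the 2 P10 sham pools of day 7 (green, pool 1 minus pool 2, no error given). Green points lie opposite to the grey ones in all windows except Med11, with the widest gap in Ccdc88c and Oasl2.

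The test of the difference between ages, day 7 minus day 3 in P1 sham less the same in P10 sham, passed for 0 of 10159 windows (0.0%; 1183 at an unadjusted p under 0.05) and for 2 of 12490 regions (0.016%), both lower. Neither region passed with scaling to all deposited pairs, with limma-trend or with a minimum mean of 1 pair. P1 sham day 3 and P10 sham day 7 pool 1 were sequenced on the same 4 flow cells, both with short fragments. A difference tied to flow cell or span would therefore enter the ages with opposite sign. This test cannot tell it apart from age, and its part was not tested. Region chr11:70431001-70476000, which spans Med11 and Cxcl16, the gene of a chemokine and scavenger receptor for oxidised lipoprotein, held 858 ± 75.4 CPM at day 3 (SD, n = 3) and 515 ± 101 at day 7 (SD, n = 6) in P1 sham, without a call there. In P10 sham it was 842 ± 145 at day 3 and 1060.1 ± 107 at day 7 (SD, n = 6 each). The difference of the differences was -1.10 (SE 0.208, limma adjusted p = 0.00639), and the P10 day 7 pools stood at 1078 and 1043. Region chr17:28509501-28528500 lay at the start of Fkbp5, a glucocorticoid-induced chaperone of steroid receptors. It held 182, 222 and 293 at day 3 and 55.6 to 176 at day 7 in P1 sham, and 157 ± 31.6 and 287 ± 76.4 in P10 sham (SD, n = 6 each). In P1 sham the day difference was -0.33 with day 7 pool 1 only and -1.27 with pool 2 only, and -0.02, -1.27 and -1.50 in the IZ, BZ and RZ. The difference of the differences was -1.86 (SE 0.389, limma adjusted p = 0.0295). The P10 day 7 pools stood at 331 and 244 there, pool 1 being the one on the flow cells of P1 day 3.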

How the data were processed

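H3K27ac CoBATCH libraries of sorted cardiac macrophages were analysed. Per their methods, the authors used Cutadapt for trimming, Bowtie2 for alignment to mm10, Samtools to discard poorly mapped reads and Picard to discard duplicates. Only cells above a minimum of reads entered a library. The deposited files list aligned reads with a mapping quality score, which was not used, and no cell barcode, so values per cell were not computed. The labels call every treatment myocardial infarction; sham was taken from the titles. Of 48 labelled samples, 6 were not analysed here.

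Repeated lines were dropped and mates joined by read name, each pair counting once at its midpoint, 18007584 in all. Repeats occurred among the P1 sham libraries in day 7 pool 2 alone (30.6% to 32.2% of lines), where 28.4% to 29.2% of pairs had 1 mate. Bins of 500 bp that reached 4 times the mean over bins with any pair, with equal weight for 24 groups, were merged within 1000 bp into 27160 regions. No midpoint lay past the end of a GRCm38 chromosome, and GENCODE M21 was the annotation. The minimum mean per library was 10 pairs for a window and 3 for a region.

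Counts were scaled by TMM factors (0.988 to 1.05 in P1 sham) computed in a script, and fitted with limma 3.58.1 in R 4.3.3 (voom, moderated two-sided test). All 42 libraries entered with 24 group means and the 14 pools as a random block (correlation 0.107 for windows, 0.0565 for regions). Zones were weighted equally, and Benjamini-Hochberg adjustment ran over all features, with a threshold of 0.05. Single values per library were compared by exact permutation over 84 arrangements. As zones of a pool were taken to share hearts, p-values measure mainly the spread between libraries. Steps were tested on simulated data. The members and gene lists were chosen with earlier results of these data known.

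Named were up to 12 windows per direction that passed, agreed in sign across the 3 zones and shared no base with one named before. Places up to 6 were filled by unadjusted p under 0.01. Up to 6 regions per direction were named likewise, filled to 3, with up to 3 windows per direction of each difference between comparisons, every list member that passed and 28 genes whatever their values. Alternatives were scaling, weights, filters, the libraries fitted, the block, GC content, left-out libraries and pools, all pairs of a window and pairs with both mates. Added after seeing the data were that last choice for regions and pairs of the shared flow cell. The comparison of fragment span between libraries was added then too, and no fit took account of span. A few items named by these rules are not reported here.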

Additional observations from a re-analysis of the deposited data

Results flagged for a closer look

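In 46 groups of 6 day 7 libraries examined for a library standing apart, 2 were found, and chance gives about 1 in 20. In the Ccm2 window the IZ of day 7 pool 1 held 484 CPM against 248 to 323 in the 5 others, and in the Igf2bp3 window the same library held 161 against 71.0 to 103. That library is the shallowest, with 48077 pairs and 23.0 CPM for 1 pair. The 2 regions whose day difference differed between P1 and P10 sham by the test of the difference itself were chr11:70431001-70476000 at Med11 (-1.10, limma adjusted p = 0.00639) and chr17:28509501-28528500 at Fkbp5 (-1.86, adjusted p = 0.0295). Neither passed with scaling to all deposited pairs, limma-trend or a minimum mean of 1 pair. P10 sham day 7 pool 1 lay on the flow cells of P1 sham day 3, and the part of flow cells in these calls was not tested.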

How the results depend on the processing

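The count of windows called between the days, 0, became 1 without the pool block, with a minimum mean of 1 pair, with P1 sham libraries only, with GC correction, and with replicate block and GC correction, each time Ccdc88c (adjusted p 0.000528 to 0.0388). It became 1 with day 7 pool 1 only (Lhfpl2, lower), and 9 with the replicate block (2 higher, Ccdc88c and Ppp4r3a, and 7 lower, Lhfpl2, Gm17268, Ccl2, Ccl7, Ccl8, Ccl11 and Ccl12). Day 3 carries number 1 alone, so the number does not pair the days. With the replicate block the day term therefore contrasts day 3 with day 7 pool 1, and pool 2 has a term of its own. Lhfpl2 differed by -2.53 with that block and by -2.54 with day 7 pool 1 only. The pool block was also left out with P1 sham or sham libraries only, with the replicate block and for the shared flow cell. In those fits zones of a pool counted as independent. The limma adjusted p of 0.000528 came from 1 of them, P1 sham libraries only. Leaving out single libraries gave 0 to 0 windows and 0 to 1 regions, the 1 being a lower region at Plau without the RZ of day 7 pool 2. The count of regions, 0, was 1 with day 7 pool 1 only (Plau) and 3 in the pairs of the shared flow cell, a choice made after seeing the data. For P1 less P10 sham, windows went from 0 to 91 without the pool block (13 higher), 67 with a minimum mean of 1 pair (3 higher) and 33 with sham libraries only (1 higher). Regions went from 2 to 7 without the pool block and 64 with sham libraries only (8 higher), and to 0 with scaling to all deposited pairs, limma-trend or a minimum mean of 1 pair. In single zones, BZ windows went from 1 to 0 with day 7 pool 2 only, and RZ windows from 0 to 2 with day 7 pool 1 only (Rhoh and Orm3, lower).

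Without single libraries, the day difference in percentage points ranged from -0.449 to 4.59 for pairs in regions (2.06 with all), -0.365 to 0.0721 for G and C bases (-0.157 with all), and 0.225 to 0.284 for chromosome X (0.254 with all). The chromosome X difference had an unadjusted exact permutation p = 0.0238 with all libraries (adjusted p = 0.0714). The exact permutation p was above 0.05 without any 1 of the day 3 libraries (0.234 to 0.272, p = 0.0714 each) or the RZ of day 7 pool 2 (0.246, p = 0.0536). The summed fetal and imprinted growth level went from 0.02 to -0.18 on the log2 scale with all pairs. Scaling to all deposited pairs shifted the median by 0.11 over windows and 0.22 over regions. The 12 windows named by the rule kept their sign in all 274 values under alternatives. They had been picked for small p and for the same sign in the 3 zones, and the alternatives used the same libraries. Over all 152 windows named, 322 of 3448 values turned sign. The cause of these changes was not tested. Day 3 is 1 pool, day 7 pool 1 holds 2 shallow libraries, and the days share 1 flow cell, with pool 1 only.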

Other observations

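A cluster of chemokine genes on chromosome 11, which encode attractants of monocytes and eosinophils, differed between the 2 day 7 pools. These genes were named after their values were seen, and the values are a description. The Ccl2 window held 159, 155 and 177 CPM in the IZ, BZ and RZ of day 3, 46.1, 56.0 and 80.8 in day 7 pool 1, and 128, 154 and 163 in day 7 pool 2. Pool 1 lay below day 3 in all zones, and pool 2 overlapped with day 3. The overlapping windows of Ccl7 and Ccl11 held 46.1 to 88.9 and 23.0 to 64.6 in pool 1, and 136 to 169 and 83.3 to 130 in pool 2. Ccl8 and Ccl12 shared all their pairs, with 50.8 to 61.5 at day 3, 0 to 16.2 in pool 1 and 28.4 to 42.7 in pool 2. Lhfpl2 on chromosome 13 held 40.2 to 59.2 at day 3, 0 to 13.4 in pool 1 and 32.5 to 55.0 in pool 2.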
